A study of Mus musculus with 6 samples.

Results

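The 10 genes described here encode CD45, its partner protein and the phosphatases, kinase and adaptors that dampen signals from the B-cell receptor. They were chosen by name, as the rows of the deposited gene table whose gene symbol was *Ptprc*, *Ptprcap*, *Ptpn6*, *Ptpn22*, *Ptprj*, *Inpp5d*, *Inppl1*, *Dok3*, *Csk* or *Pag1*. Each symbol had 1 row, which gave 10 of 55421 genes. The study asked how loss of hnRNPL, an RNA-binding splicing regulator, changes gene expression in activated B cells. RNA-seq was performed on splenic B cells from mice of either sex on a C57BL6/J background, older than 6 weeks, with 3 WT and 3 hnRNPL-deficient mice and 1 library per mouse. WT mice carried CD21-cre, and hnRNPL-deficient mice carried CD21-cre together with *Hnrnpl* F/F. Both groups also carried the Rosa mT/mG reporter, which switches from tdTomato to GFP once Cre has acted. B cells were activated ex vivo for 24 h with 5 μg/ml LPS plus 5 ng/ml IL-4, and GFP+ cells were sorted in both groups. CD21-cre acts mostly in peripheral B cells, so the comparison concerns mature cells in which Cre had acted.

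The B-cell receptor relies on Src family kinases such as Lyn to phosphorylate its signalling chains. CD45 removes the phosphate from the inhibitory tail tyrosine of these kinases, whereas Csk puts it there, so the pair sets how many kinase molecules are ready to act. Downstream, SHP-1 and SHIP-1 are recruited to inhibitory receptors, where they strip phosphate from signalling proteins and from the membrane lipid PIP3. CD45 is therefore not a pure brake, although the other proteins described here mostly act to restrain the signal. CD45 is also a classic example of regulated splicing, because its variable exons are included or skipped according to the lymphocyte type and its activation, and hnRNPL is among the proteins known to act on them.

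The variable exons of *Ptprc* are shown because they are where hnRNPL is known to act on this gene. In the GENCODE annotation (GRCm38), 4 consecutive coding exons of transcript Ptprc-207, exons 4 to 7, were skipped by at least 1 other coding transcript of *Ptprc*. Shown are the 3 that 3 coding transcripts skip. They are exon 4 (chr1:138122456-138122584), exon 5 (chr1:138120020-138120166) and exon 6 (chr1:138117754-138117894) of 33, all on the minus strand, and they are 129, 147 and 141 bases long. Exon 7 (chr1:138116954-138117025, 72 bases) was skipped by 1 of 4 coding transcripts and is not shown. The sequences of exons 4, 5 and 6 follow, 5′ to 3′ as they read in the transcript, with capitals marking every run of 3 CA dinucleotides separated by 0 to 2 bases, the CA-rich form associated with hnRNPL.
Ptprc exon 4: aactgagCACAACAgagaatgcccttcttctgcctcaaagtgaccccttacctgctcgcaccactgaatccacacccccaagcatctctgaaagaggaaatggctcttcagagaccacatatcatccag
Ptprc exon 5: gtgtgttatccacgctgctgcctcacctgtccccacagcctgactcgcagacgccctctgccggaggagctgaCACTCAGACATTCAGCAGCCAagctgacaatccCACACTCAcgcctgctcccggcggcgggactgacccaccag
Ptprc exon 6: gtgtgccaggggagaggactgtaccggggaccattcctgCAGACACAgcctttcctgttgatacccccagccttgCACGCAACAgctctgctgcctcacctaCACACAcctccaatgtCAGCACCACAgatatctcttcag
The motif began at 1 position in exon 4 and at 5 positions in each of exons 5 and 6, with 3 in exon 7, counting overlapping starts and the transcript's own strand only. It is common, since 37.6% of all 20124 internal coding exons between 129 and 147 bases long held it. A match describes these letters and is not a measured binding site. The values below count reads over the whole gene and do not resolve these exons.

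Sequencing depth was between 40395186 reads on genes (hnRNPL-deficient replicate 3) and 75180749 (WT replicate 3). Values are normalized counts, that is, reads per gene divided by a size factor for each library. *Hnrnpl*, the targeted gene, had 24371, 25579.7 and 24174 normalized counts in WT and 2178, 1519 and 1297 in hnRNPL-deficient replicates, which left 6.74% of the WT mean (log2 fold change of -3.93, limma adjusted p = 2.23e-05). B cell markers were high in every library, with a summed level of 421826 to 506604 in WT and 444738 to 481158 in hnRNPL-deficient samples. The T cell genes *Cd3e*, *Cd4* and *Trbc2* were at or near 0. The 9 T cell markers summed to 30.6 to 52.2 in WT and 40.4 to 91.8 in hnRNPL-deficient samples. Among them *Trac* had means of 16.6 ± 2.30 and 26.6 ± 5.75 normalized counts without overlap. *Cd247* reached 48.0 in hnRNPL-deficient replicate 3, and neither gene was called. The summed level of 9 myeloid markers was 267 to 340 in WT and 1263 to 1402 in hnRNPL-deficient samples. *Adgre1*, the F4/80 gene, made up most of that sum (log2 fold change of 2.24). *Fcer1g* had 6.96, 15.6 and 9.18 normalized counts in WT and 24.3, 29.3 and 17.8 in hnRNPL-deficient replicates, without overlap. It was not called (log2 fold change of 1.14, limma adjusted p = 0.115). *Itgam* was low in both groups, which overlapped (log2 fold change of -0.07). *S100a8* and *S100a9* were at 0 in all libraries and *Lyz2*, *Cd14* and *Csf1r* at or near 0. The 6 NK cell markers summed to 28.3 to 39.5 and 46.4 to 74.8, with *Ncr1* at 0. *Prf1*, which encodes perforin and made up most of that sum, was called higher, with means of 30.0 ± 3.84 and 57.0 ± 11.9 normalized counts (log2 fold change of 0.89, limma adjusted p = 0.0884). The 6 erythroid markers summed to 6.92 to 23.2 and 18.9 to 28.3. The 6 plasma cell markers summed to 33957 to 39571 and 33298 to 36361, nearly all of it *Xbp1* and *Irf4*, and all 5 that were tested had lower means in hnRNPL-deficient cells. Of these 1 was called, *Jchain*, the joining chain of secreted antibody, with 117, 109 and 26.0 normalized counts in WT and 23.4, 7.07 and 13.7 in hnRNPL-deficient replicates (log2 fold change of -2.31, limma adjusted p = 0.0509). *Xist*, expressed from an inactive X chromosome, reached 98507 in WT replicate 3 and 98219 in hnRNPL-deficient replicate 2 and was between 2.32 and 7.21 elsewhere, so each group held libraries of both kinds. What part these shifts in T cell, myeloid, NK cell, erythroid and plasma cell markers have in the values below was not tested.

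All 10 genes averaged at least 10 normalized counts, the filter used, and were tested with limma among 17640 genes. A gene was called where its Benjamini-Hochberg adjusted p was under 0.1 and its change at least 1.5-fold. By limma 0 of the 10 were called, against a background of 11.4% of all tested genes, 7.28% higher and 4.08% lower in hnRNPL-deficient cells. The count tests on 5 libraries also called 0 of the 10, against 9.64% of genes by edgeR and 10.7% by DESeq2. With no minimum fold, 1 of the 10 passed the adjusted p by limma (*Ptpn22*), against 18.0% of all tested genes. The same 1 gene passed by edgeR, against 13.2%, and by DESeq2, against 16.6%. At an unadjusted p under 0.05, 2 of 10 passed (*Ptpn22* and *Inppl1*), against 27.4%. The same 2 genes were those in which the 3 WT and 3 hnRNPL-deficient values did not overlap, which was the case for 34.0% of all tested genes. Both were higher in hnRNPL-deficient cells, a direction without overlap found in 17.7%. Means were higher in hnRNPL-deficient cells for 5 genes and lower for 5, with a median log2 fold change of 0.01 beside -0.03 over all tested genes.

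**Figure D1:**
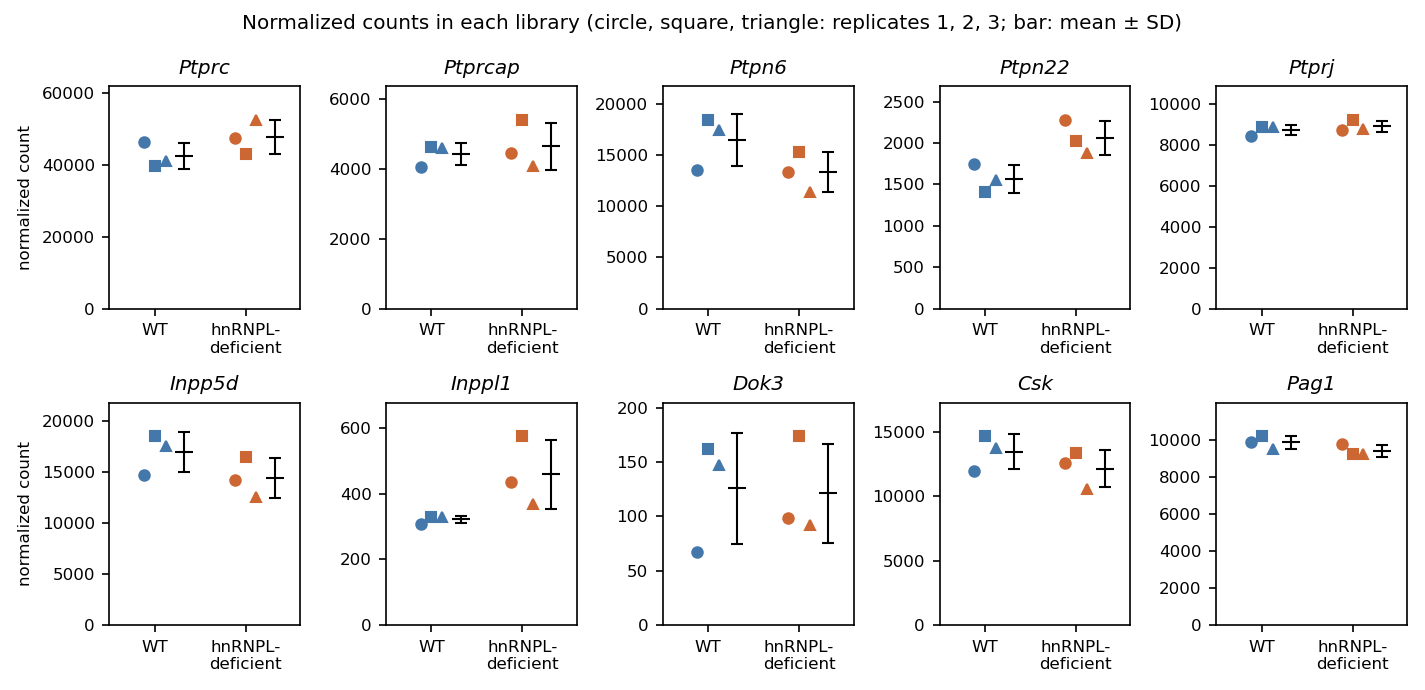
Normalized counts of each of the 10 genes in the 3 WT and 3 hnRNPL-deficient replicates (1 point per mouse, bars for the group mean ± SD, 1 panel per gene with its own linear axis from 0). WT and hnRNPL-deficient points are separated for *Ptpn22* and *Inppl1* and intermingle for the other 8 genes.

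**Figure D2:**
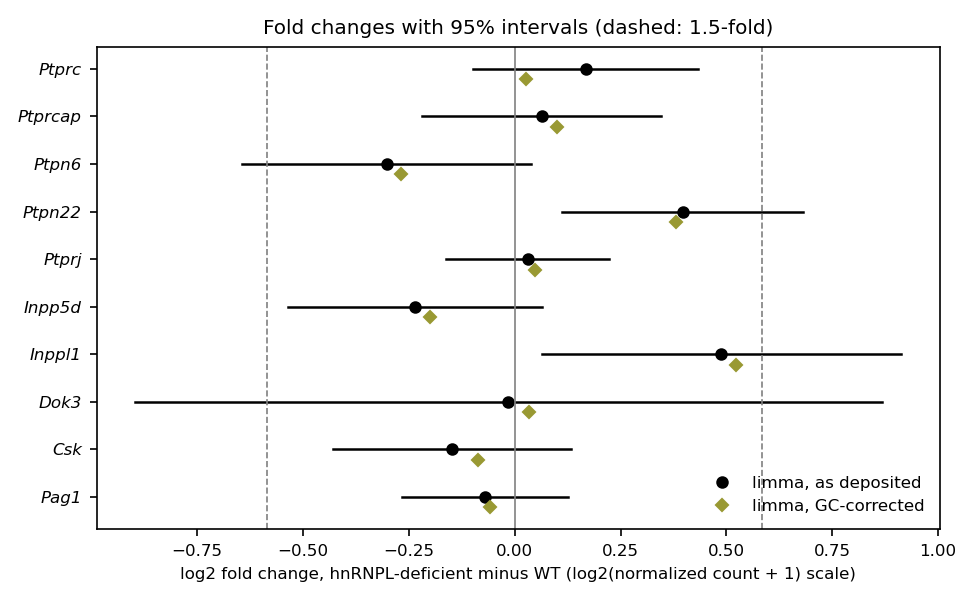
Log2 fold change of each gene (hnRNPL-deficient against WT, on the log2(normalized count + 1) scale) with its 95% confidence interval from limma, and the value after correction for GC content. The intervals of *Ptpn22* (0.11 to 0.68) and *Inppl1* (0.06 to 0.91) lie above 0, and the other 8 include it.

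*Ptprc*, which encodes CD45, lies on chromosome 1 (chr1:138062861-138175708, minus strand). It had 46495, 39672 and 41188 normalized counts in WT and 47583, 43026 and 52568 in hnRNPL-deficient replicates. WT replicate 1 exceeded hnRNPL-deficient replicate 2, so the groups overlapped. The means were 42452 ± 3583 and 47726 ± 4773 (SD, n = 3 mice each), which gave a log2 fold change of 0.17 (SE 0.116, 95% interval -0.10 to 0.43, limma adjusted p = 0.392). In fold terms the interval ran from 0.935 to 1.35, so changes of 1.5-fold in either direction lay outside it. After correction for GC content the log2 fold change was 0.03 (interval -0.17 to 0.23). Other alternatives gave larger values, with 0.25 under quantile normalization. On the 5 libraries without hnRNPL-deficient replicate 2 it was 0.28 by edgeR, 0.26 by DESeq2 and 0.24 by limma. The adjusted p of *Ptprc* ranged from 0.145 to 0.862 over all alternatives, with no call in any of them. *A130071D04Rik* overlaps *Ptprc* on the same strand, and reads in the shared part cannot be assigned with certainty. Fewer cells of a kind and less RNA per cell cannot be told apart in such bulk values, for this gene and those that follow.

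*Ptprcap* encodes a small transmembrane protein that travels with CD45 (chr19:4153604-4156751). Its normalized counts were 4050, 4602 and 4600 in WT and 4446, 5389 and 4082 in hnRNPL-deficient replicates. The hnRNPL-deficient replicates held the single highest value and their lowest fell within the WT range. The log2 fold change was 0.06 (SE 0.124, interval -0.22 to 0.35, limma adjusted p = 0.776). On the 5 libraries without hnRNPL-deficient replicate 2 it was -0.01 by edgeR, -0.03 by DESeq2 and -0.05 by limma. Its sign thus turned with that library left out. *Coro1b* overlaps *Ptprcap* on the same strand.

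Among the tyrosine phosphatases, *Ptpn22* was the one whose groups did not overlap. It encodes a phosphatase that binds Csk and removes the activating phosphate from Src family and Syk family kinases, and it lies on chromosome 3 (chr3:103859795-103912247). WT replicates had 1745, 1404 and 1548 normalized counts and hnRNPL-deficient replicates 2278, 2025 and 1876. Every hnRNPL-deficient value was above every WT value. The means were 1566 ± 171 and 2060 ± 203 (SD, n = 3 mice each), 31.6% apart relative to WT. The log2 fold change was 0.40 (SE 0.125, interval 0.11 to 0.68, limma adjusted p = 0.0777), which passed the p threshold and fell short of the 1.5-fold minimum. Leaving out each library in turn gave 0.32 to 0.48, and its adjusted p ranged from 0.0167 to 0.228 over all alternatives. After GC correction the value was 0.38 (limma adjusted p = 0.0558). *Gm15472* and *Gm43065* overlap the gene on the same strand.

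*Ptpn6* encodes SHP-1, the phosphatase that docks on inhibitory receptors such as CD22 (chr6:124720707-124738714). It had 13585, 18434 and 17460 normalized counts in WT and 13321, 15318 and 11431 in hnRNPL-deficient replicates. WT replicate 1 lay among the hnRNPL-deficient values, apart from the other WT replicates. The log2 fold change was -0.30 (SE 0.149, interval -0.64 to 0.04, limma adjusted p = 0.233). It was -0.27 after GC correction, with an interval of -0.51 to -0.02 and a limma adjusted p of 0.130. Over all alternatives its adjusted p ranged from 0.0341 to 0.561, and the gene was not called in any of them.

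*Ptprj* encodes CD148, a receptor phosphatase whose role in B cells overlaps with that of CD45 (chr2:90429754-90580647). It was the steadiest of the 10 genes, with 8443, 8837 and 8838 normalized counts in WT and 8694, 9205 and 8784 in hnRNPL-deficient replicates. All 6 values lay within a narrow band and the groups overlapped. The log2 fold change of 0.03 had a 95% interval of -0.16 to 0.22, or 0.894- to 1.17-fold (limma adjusted p = 0.843).

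The lipid phosphatases SHIP-1 and SHIP-2 both convert PIP3, and they stood at very different levels. *Inpp5d* encodes SHIP-1, the form typical of blood cells and recruited to the inhibitory Fc receptor (chr1:87620312-87720507). It had 14736, 18468 and 17567 normalized counts in WT and 14197, 16428 and 12558 in hnRNPL-deficient replicates, so that the groups overlapped. Its log2 fold change was -0.24 (SE 0.131, interval -0.53 to 0.06, limma adjusted p = 0.287). The adjusted p ranged from 0.0586 to 0.712 over all alternatives, with no call in any of them.

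*Inppl1* encodes SHIP-2, which is made in most tissues (chr7:101822632-101838229). WT replicates had 308.7, 328.6 and 328.1 normalized counts, and hnRNPL-deficient replicates 436.3, 574.5 and 367.3. The WT values were tightly grouped and lay below all hnRNPL-deficient values, which were spread more widely. The means were 322 ± 11.3 and 459 ± 105 (SD, n = 3 mice each), which gave a log2 fold change of 0.49 (SE 0.186, interval 0.06 to 0.91, limma adjusted p = 0.133). Without hnRNPL-deficient replicate 3, the shallowest library, the log2 fold change was 0.64 and the gene was called (limma adjusted p = 0.0698). Without hnRNPL-deficient replicate 2, the highest of its group, it was 0.31 (limma adjusted p = 0.343), and these were the extremes over the libraries left out. Its adjusted p fell to 0.0436 after GC correction, with a log2 fold change of 0.52 that was still under 1.5-fold. On 5 libraries the log2 fold change was 0.36 by edgeR and 0.34 by DESeq2 (adjusted p of 0.276 and 0.279). The adjusted p ranged from 0.0208 to 0.343 over all alternatives.

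*Dok3* encodes an adaptor that brings SHIP-1 and Grb2 to the B-cell receptor (chr13:55523231-55529296). Its values were low and scattered, at 67.3, 163 and 148 normalized counts in WT and 98.3, 174 and 91.8 in hnRNPL-deficient replicates. The lowest value of all was in WT and the highest in an hnRNPL-deficient replicate. The log2 fold change of -0.01 had a 95% interval of -0.90 to 0.87 (limma adjusted p = 0.985). In fold terms the interval ran from 0.537 to 1.82, so changes of 1.5-fold in either direction lay inside it. The sign of the fold change turned in 8 alternatives.

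*Csk* encodes the kinase that adds the inhibitory tail phosphate (chr9:57626646-57653631). It had 11956, 14647 and 13762 normalized counts in WT and 12572, 13358 and 10535 in hnRNPL-deficient replicates. The groups overlapped, with a log2 fold change of -0.15 (SE 0.123, interval -0.43 to 0.13, limma adjusted p = 0.473). *Pag1* encodes the membrane adaptor that anchors Csk (chr3:9687479-9833679). It had 9884, 10168 and 9494 normalized counts in WT and 9737, 9201 and 9213 in hnRNPL-deficient replicates, again with overlap. Its log2 fold change was -0.07 (SE 0.0857, interval -0.27 to 0.13, limma adjusted p = 0.636).

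Ratios within a library were then compared for pairs of partners or paralogs, since such a ratio does not depend on the size factor. Normalized counts per kilobase of annotated exon were used, and 3 against 3 libraries cannot give an exact p under 0.1. The *Inppl1* to *Inpp5d* ratio was 0.0249, 0.0211 and 0.0222 in WT and 0.0365, 0.0415 and 0.0348 in hnRNPL-deficient replicates. All hnRNPL-deficient ratios were above all WT ratios, by 1.65-fold (exact two-sided permutation test, p = 0.1, 0.2 after Benjamini-Hochberg adjustment over 4 ratios). SHIP-2 transcripts nevertheless remained a small fraction of SHIP-1 transcripts in both groups. The *Ptpn22* to *Csk* ratio was 0.0805, 0.0529 and 0.0620 in WT and 0.100, 0.0836 and 0.0982 in hnRNPL-deficient replicates. These did not overlap either, at 1.46-fold (exact two-sided permutation test, p = 0.1, adjusted 0.2). The GC contents of *Ptpn22* (44.8%) and *Csk* (60.1%) lie far apart, and the difference of their log2 fold changes was 0.47 after GC correction against 0.55 for the ratio as measured. The corresponding values for *Inppl1* and *Inpp5d* were 0.72 and 0.73. The *Ptprcap* to *Ptprc* ratio was 1.19 ± 0.177 for WT and 1.12 ± 0.276 for hnRNPL-deficient replicates (SD, n = 3, exact permutation p = 0.7). For *Pag1* to *Csk* it was 0.287 ± 0.0303 and 0.304 ± 0.0363 (SD, n = 3, exact permutation p = 0.7).

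**Figure D3:**
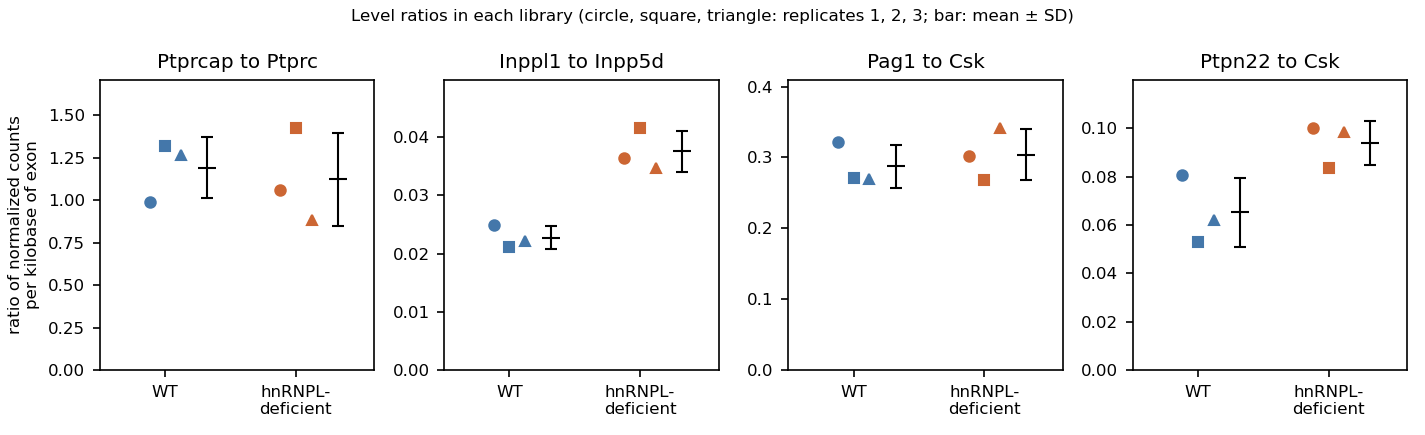
Ratio of normalized counts per kilobase of exon between the genes of 4 pairs in each library (1 point per mouse, bars for the group mean ± SD). The hnRNPL-deficient points lie above the WT points for *Inppl1* to *Inpp5d* and for *Ptpn22* to *Csk*, and overlap them for *Ptprcap* to *Ptprc* and *Pag1* to *Csk*.

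Levels of different genes were compared per kilobase, and the order depended on which length was used. With the length of all annotated exons, WT means of normalized counts per kilobase were highest for *Ptpn6* (5886 ± 916), then *Csk* (3600 ± 367), *Ptprcap* (2742 ± 197), *Ptprc* (2318 ± 196), *Inpp5d* (2226 ± 256), *Ptprj* (1042 ± 27.3), *Pag1* (1028 ± 35.3), *Ptpn22* (231 ± 25.3), *Dok3* (51.2 ± 20.8) and *Inppl1* (50.3 ± 1.77; SD, n = 3 mice each). Libraries of neighbouring genes overlapped for *Ptprcap* with *Ptprc*, *Ptprc* with *Inpp5d*, *Ptprj* with *Pag1* and *Dok3* with *Inppl1*. The annotated exons of *Ptprc* cover 18313 bases in all, against 5074 for its longest coding transcript. With the longest coding transcript as length, *Ptprc* was first in WT (8366 ± 706), overlapping *Ptpn6* (7146 ± 1111), and *Dok3* and *Inppl1* were again last. In hnRNPL-deficient cells *Inppl1* (71.8 normalized counts per kilobase of exon) stood above *Dok3* (49.3), with overlapping libraries.

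The genes whose levels ran most like those of *Ptprc* over the 6 libraries were *Rel*, *Zfp64*, *Zmym2*, *Pon2* and *Washc3*. Likeness was the root mean square difference between centred log2 values, which was 0.0146 for *Rel*, 0.0168 for *Zfp64* and 0.0305 for *Washc3*, the fifth, beside a median of 0.320 over all tested genes. *Rel*, which encodes the NF-κB subunit c-Rel, had 27959, 23821 and 24723 normalized counts in WT and 28166, 25473 and 32048 in hnRNPL-deficient replicates. As for *Ptprc*, WT replicate 1 was the highest of its group and hnRNPL-deficient replicate 3 the highest of all. These 6 points share libraries, depth and base composition, and the likeness is given as a description.

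Part of the spread among replicates followed base composition. Per 10 percentage points of GC content, the level of a gene relative to its own mean changed by -0.26 on the log2 scale in hnRNPL-deficient replicate 3, by 0.08 in hnRNPL-deficient replicate 2 and by -0.01 in hnRNPL-deficient replicate 1. In WT the same slope was -0.03 in replicate 1 and 0.11 in replicates 2 and 3. Above 50% GC stood 6 of the 10 genes, namely *Csk*, *Dok3*, *Ptprcap*, *Inppl1*, *Ptpn6* and *Inpp5d*, and all 6 had WT replicate 1 lowest in its group, hnRNPL-deficient replicate 2 highest and hnRNPL-deficient replicate 3 lowest. The order was set after the values were seen, so its presence in all 6 is a description and not a test. This order was found in 29.8% of the tested genes above 50% GC, in 4.7% of the others, and in 0 of the 4 remaining genes. With GC correction, which was chosen after seeing the data, the standard deviation within groups on the log2 scale went from 0.16 to 0.04 for *Csk*, from 0.16 to 0.05 for *Ptprcap* and from 0.22 to 0.14 for *Ptpn6*. It rose from 0.041 to 0.057 for *Ptprj* and from 0.048 to 0.059 for *Pag1*, and fell for the rest of the 10 genes. For the median tested gene it went from 0.23 to 0.21. After GC correction 0 of the 10 genes were called, against 11.9% of all tested genes, and 2 passed the adjusted p without a minimum fold (*Ptpn22* and *Inppl1*), against 22.6%.

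**Figure D4:**
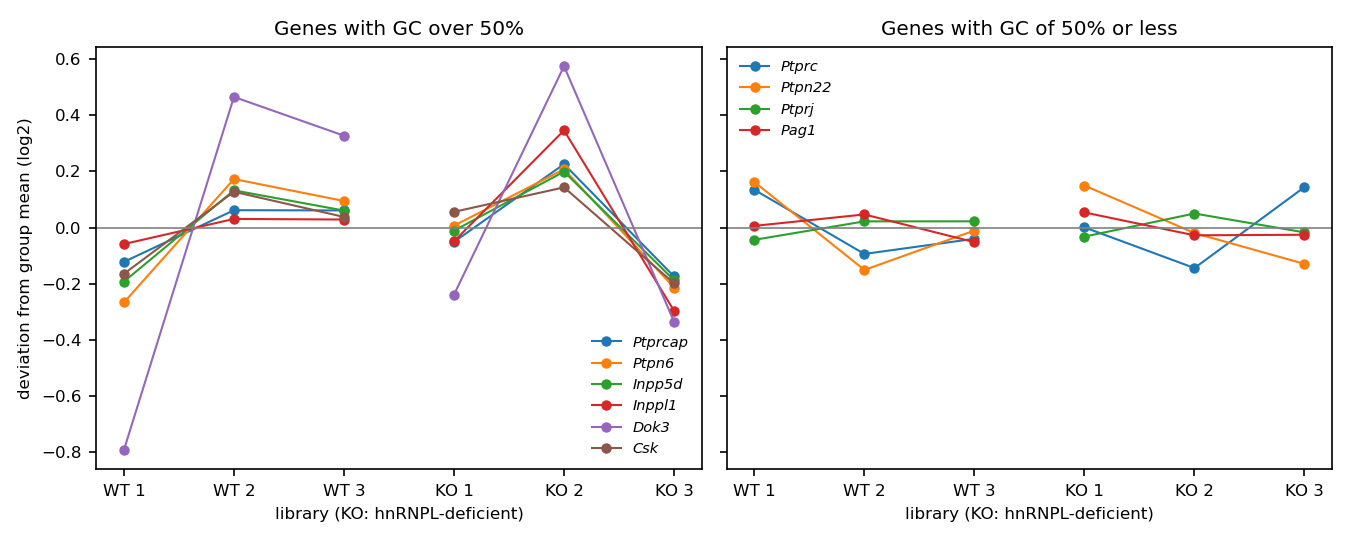
Deviation of each of the 10 genes from its group mean (log2 scale, vertical axis) in the 6 libraries (horizontal axis), 1 line per gene, in 1 panel for genes above 50% GC and 1 for the others. The lines of the first panel share the lowest WT library and the highest and lowest hnRNPL-deficient libraries, and that of *Dok3* spreads most.

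The other genes of the pathway were taken from lists drawn up by function. Of 16 inhibitory receptors 13 were tested, and 1 rose, 0 fell and 12 were not called (median log2 fold change 0.07). The called share was 7.69%, against 11.4% of all tested genes. The receptor that rose was *Cd72*, which recruits SHP-1. Its normalized counts were 1007, 1456 and 1285 in WT and 2022, 2220 and 2086 in hnRNPL-deficient replicates, a log2 fold change of 0.77 (SE 0.145, limma adjusted p = 0.0133), and it was called in 20 of 20 alternatives. *Cd22*, a sialic acid-binding receptor that also recruits SHP-1, was the most abundant of the list by normalized count and is named after its values were seen. It had 33973, 30709 and 34388 normalized counts in WT and 23718, 22425 and 21704 in hnRNPL-deficient replicates, with no overlap. Its log2 fold change of -0.55 passed the p threshold (limma adjusted p = 0.00987) and missed the 1.5-fold minimum. *Pecam1* (log2 fold change of 0.53, limma adjusted p = 0.0188) and *Pirb* (0.57, limma adjusted p = 0.0749) did the same in the other direction. Their groups did not overlap either, and both are likewise named after their values were seen. SHP-1 itself, the phosphatase that CD72 and CD22 recruit, was not called.

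Of 28 other intracellular brakes 27 were tested, with 1 higher, 1 lower and 25 not called (median log2 fold change 0.04). This was a called share of 7.41%, against the same 11.4%. *Inpp4b*, which removes a phosphate from the lipid that SHIP-1 makes, fell from a WT mean of 3291 ± 274 normalized counts to 1716 ± 198 (SD, n = 3 mice each), which gave a log2 fold change of -0.94 (limma adjusted p = 0.00291) in 20 of 20 alternatives. *Spred1*, an inhibitor of the Ras pathway, rose from 1215 ± 287 to 1846 ± 283 (log2 fold change of 0.62, limma adjusted p = 0.0737) and lost its call in 7 of 20 alternatives, GC correction among them.

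The Src family kinases are the substrates of CD45 and Csk, and all 8 were tested. Called lower were 2 and higher 0, and the median log2 fold change was -0.02. Over all tested genes 11.4% were called and 4.08% were called lower. *Fgr* had 617, 528 and 611 normalized counts in WT and 254, 257 and 191 in hnRNPL-deficient replicates. All WT values were more than 2 times all hnRNPL-deficient ones, with a log2 fold change of -1.33 (SE 0.173, limma adjusted p = 0.00298). *Src* fell from 216 ± 53.1 to 102 ± 13.9 normalized counts (log2 fold change of -1.05, limma adjusted p = 0.0301) and was not called without WT replicate 2 or without WT replicate 3. *Lyn*, the main Src family kinase of B cells, is named after its values were seen, with a mean of 8737 ± 694 normalized counts for WT against 9272 ± 711 for hnRNPL-deficient replicates (log2 fold change of 0.09, limma adjusted p = 0.628).

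On the activating arm 28 of 28 genes were tested, with 2 higher, 1 lower and 25 not called (median log2 fold change 0.03). The called share of 10.7% was near the 11.4% of all tested genes. Both genes that rose encode surface proteins. *Cd81*, a tetraspanin, rose from 7571 ± 1610 to 15230 ± 2063 normalized counts (log2 fold change of 1.02, limma adjusted p = 0.00684). *Cr2*, which encodes CD21, had 5189, 3382 and 3474 normalized counts in WT and 7031, 5425 and 9441 in hnRNPL-deficient replicates (log2 fold change of 0.85, limma adjusted p = 0.0444), and lost its call in 4 of 20 alternatives. The activating arm shares *Lyn*, *Fyn* and *Blk* with the list of Src family kinases.

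**Figure D5:**
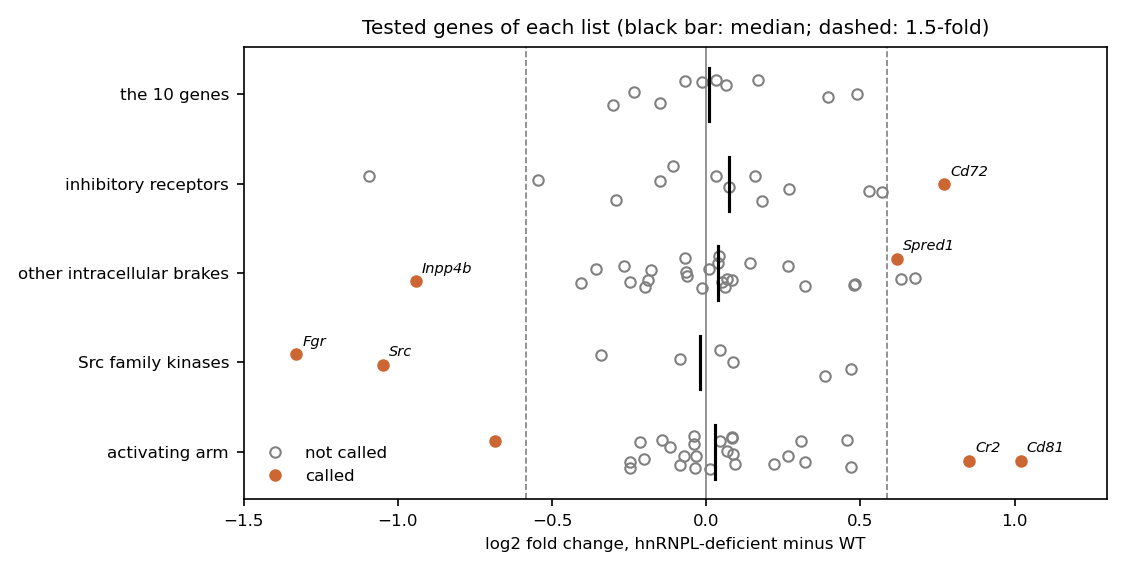
Log2 fold change (hnRNPL-deficient against WT) of every tested gene in the set of 10 and in 4 pathway lists, 1 point per gene, with the called genes described here named and vertical lines at 1.5-fold. The points of the 10 genes lie between -0.30 and 0.49 with none called, and called genes lie on both sides of 0 in the lists.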

How the data were processed

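RNA from the sorted cells of each mouse was enriched for polyadenylated RNA and sequenced as paired 100-base reads. Per the submitters' processing notes and the methods, the authors trimmed reads with fastp 0.23.1, aligned them to mm10 with STAR 2.7.9a, counted them per gene and strand with featureCounts on GENCODE M23, and divided the counts by DESeq2 1.38.2 size factors. The deposited values are these normalized counts, a signal per gene and library. The authors' columns of fold changes and p-values were not used. Dividing by the value of 1 read gave whole reads for 100% of values (40395186 to 75180749 reads per library), but the column of hnRNPL-deficient replicate 2 is not separable from a scale of 1 by the automatic check, so count tests used the 5 other libraries.

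Samples were grouped by their labels. limma 3.58.1 (R 4.3.3) was run on log2(normalized count + 1), with a trend of variance on level, keeping genes that averaged 10 or more, and p-values were adjusted over 17640 genes by the Benjamini-Hochberg method. Adding 1 understates changes of low genes. Alternatives were pseudocounts of 0.5 and 5, other filters, equal totals, TMM scaling, quantile normalization, no trend, the replicate number as a block, *Xist* as a covariate, stricter or looser thresholds, each replicate left out, and edgeR 4.0.16 and DESeq2 1.42.0 on the recovered reads. GC correction (loess on GC content, known for 99.7% of tested genes) and the coding transcript as length were added after seeing the data. The main limma fit and the edgeR and DESeq2 tests were first tried on simulated data. The permutation test, the GC correction and the replicate block were not. Coordinates, lengths and exon sequences came from GENCODE M21 (GRCm38), where 17615 tested genes were found.

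The 10 genes and the pathway lists were chosen with earlier results of these data known. Named genes were the 10, *Hnrnpl*, up to 6 called genes with the largest change per list, and the 5 genes nearest to *Ptprc*. Single marker genes were named after their values were seen. For 1 called gene of the pathway lists, the values are not reported here. Splicing and the other assays of the study were not analysed here.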

Additional observations from a re-analysis of the deposited data

How the results depend on the processing

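Of the fold changes of the 10 genes under all alternatives, 196 kept their direction and their side of the thresholds, 12 changed sign and 2 passed the thresholds. The number of genes called among the 10 was 0, and 1 with no minimum fold (*Ptpn22*). Leaving out each replicate gave 0 to 1, the 1 being *Inppl1* without hnRNPL-deficient replicate 3. The 12 changes of sign were all of genes with a log2 fold change within 0.07 of 0, and the cause was not tested. For *Ptprcap* it was -0.014 by edgeR and -0.034 by DESeq2, and it ranged from -0.050 (without hnRNPL-deficient replicate 2) to 0.15 without 1 replicate. For *Pag1* it was 0.046 with quantile normalization. For *Dok3* it was 0.040 with equal totals, 0.016 with TMM scaling and 0.034 with GC correction with or without the replicate block, and it ranged from -0.41 to 0.22 without 1 replicate, above 0 without WT replicate 2 or 3 or hnRNPL-deficient replicate 1 or 3. Over all genes 1284 higher and 719 lower calls became 610 and 216 at an adjusted p under 0.05 and 2-fold. Without 1 replicate they ranged from 850 (without WT replicate 3) to 1124 higher and from 483 to 695 lower. Whether the replicate numbers pair the samples is not known. Deviations of same-numbered libraries correlated at 0.43, 0.32 and 0.07, and those of differently numbered libraries at -0.458 to 0.305. With the replicate number as a block there were 1755 higher and 1018 lower calls, still none of the 10 genes, and 1087 lower with GC correction as well. Calls among inhibitory receptors went from 1 to 2 with equal totals, TMM scaling, the replicate block or edgeR, and to 3 with quantile normalization, GC correction with or without the block, or DESeq2, and ranged from 1 to 3 without 1 replicate. Calls among other intracellular brakes went from 2 to 1 with no trend and with GC correction with or without the block, and ranged from 1 to 2 without 1 replicate. Without 1 replicate, Src family kinases had 1 to 2 calls and the activating arm 1 to 3. With the coding transcript as length, WT ranks became 1 for *Ptprc* (from 4), 2 for *Ptpn6* (from 1), 3 for *Csk* (from 2), 4 for *Ptprcap* (from 3), 6 for *Pag1* (from 7) and 7 for *Ptprj* (from 6). With 3 mice per group, changes of 1.5-fold in either direction in *Dok3* were within its interval, which its low counts and spread make wide.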
